A study of Mus musculus with 15 samples.

Results

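The genes that NIH 3T3 fibroblasts express after zinc treatment, with no C/EBP transgene, were read from 3 of the 15 arrays of a study of C/EBP transcription factors. The 3 arrays are those whose titles name the empty vector, and all other arrays carry a C/EBP cDNA and were not used. The cells held the pMT plasmid without insert, in which the metallothionein promoter would drive a cloned cDNA, had been selected with G418 and received zinc sulphate for 16 h before total RNA was taken. The labels speak of triplicate clones and also of polyclonal clones, and whether the 3 cultures came from separate transfections is not given. The spread between arrays may therefore be technical. No array came from cells without zinc, without plasmid or without selection, so what zinc, the plasmid or the drug did to a gene cannot be told apart from the level of the line itself. What follows ranks genes by signal and makes no comparison between conditions.

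NIH 3T3 is an immortal line of mouse embryo fibroblasts, cells that secrete collagen and other matrix proteins and that respond strongly to serum growth factors. Zinc entering a cell is sensed by the transcription factor MTF-1, which binds metal response elements in DNA and switches on metallothioneins, small cysteine-rich proteins that hold zinc and copper. Zinc and other thiol-binding metals are also known to induce haem oxygenase 1 and heat shock proteins. This is background and was not tested here.

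RNA was hybridised to Affymetrix MG_74Av2 arrays, on which a probe set of short oligonucleotides gives 1 fluorescence signal per transcript. Of 12422 probe sets that were not controls, 10833 named 1 gene, and they covered 8251 genes. Each array was scaled to a common median of 1098 units, and a gene was read by its probe set with the highest mean. Probes differ in how strongly they bind, so the order of genes is an order of brightness and not of RNA amount, and fewer expressing cells cannot be told apart from less RNA per cell. A gene was called brightest from 16 times the array median (17569 units), moderate from the array median to that limit, and near background where all 3 arrays were at or under a floor of 198 units, the pooled 20th percentile. Genes between were called dim. The files used here hold no detection calls, so neither band at the low end shows that a gene was off.

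Control probe sets gave a measure of the signal seen without a matching target. The 34 control probe sets for bacterial sequences not spiked in, yeast sequences and the opposite strand of transcripts read from 20.7 to 1089.8 units, just under the array median. Of the 2720 dim genes, 2713 had a mean at or under that highest control reading. It was a single reading, of an opposite-strand control that read 181 and 147 units on replicates 1 and 2. The highest mean of these controls over the 3 arrays was 806 units. A dim mean above that lay within the range of single control readings only. For Gapdh, a glycolytic enzyme that only control probe sets measured, the ratio of the 3′ to the 5′ probe set was 0.897, 0.937 and 0.917 on the 3 arrays, and for Actb, cytoplasmic β-actin, it was 1.11, 1.41 and 1.19. For Tfrc, the transferrin receptor, it was 5.93, 12.5 and 4.88. The Tfrc 5′ probe set read 613, 213 and 692 units, within the range of the controls without a target, so its ratio is less certain. The ratios of all 3 genes were highest in replicate 2.

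Replicate 2 stood apart from replicates 1 and 3 in the bright genes. It was the highest array for 251 of the 281 brightest genes (89.3%) and for 60.6% of the moderate genes, but for 34.3% of the dim ones. Over the brightest genes the median log2 difference was -0.34 for replicate 1 minus replicate 2 and 0.25 for replicate 2 minus replicate 3, against -0.10 for replicate 1 minus replicate 3. The 9 probe sets for spiked bacterial transcripts, which the cells do not make, had scaled medians of 3270, 5156 and 3309 units on replicates 1, 2 and 3. Why replicate 2 read higher was not tested. Replicate 2 had the lowest deposited median, 1007.65 units against up to 1153.95, so scaling to the median raised it. With the values as deposited it was highest for 59.4% of the brightest genes, and after quantile normalization for 41.2%. A bright gene that read highest in replicate 2 is therefore the usual case in what follows. The median spread of the bands, and of the lists compared for spread, is given with and without that array, while an SD of a single gene is over all 3.

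Signal was concentrated in few genes. The 281 brightest genes (3.41%) held 33.8% of the summed signal, the 4574 moderate genes (55.4%) held 61.7%, and the 2720 dim genes (33.0%) held 4.33%. The remaining 676 genes (8.19%) were near background. The 25 brightest genes fell into a few groups. They held 10 cytosolic ribosomal protein genes, the elongation factor Eef1a1, the metallothioneins Mt1 and Mt2, haem oxygenase Hmox1, the ferritin heavy chain Fth1, and the chaperones Hsph1 and Hspa1b. Also among them were Tpt1, the translationally controlled tumour protein, the galectin Lgals1, the calcium-binding protein S100a6, the tubulin Tuba1c, the G protein subunit Gnas, the nuclear transport GTPase Ran, the spliceosome protein Snrpb and Med22, a Mediator subunit. At the top stood Rpl41, a very short ribosomal protein, with 154779, 191412 and 192411 units on replicates 1, 2 and 3.

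**Figure D1:**
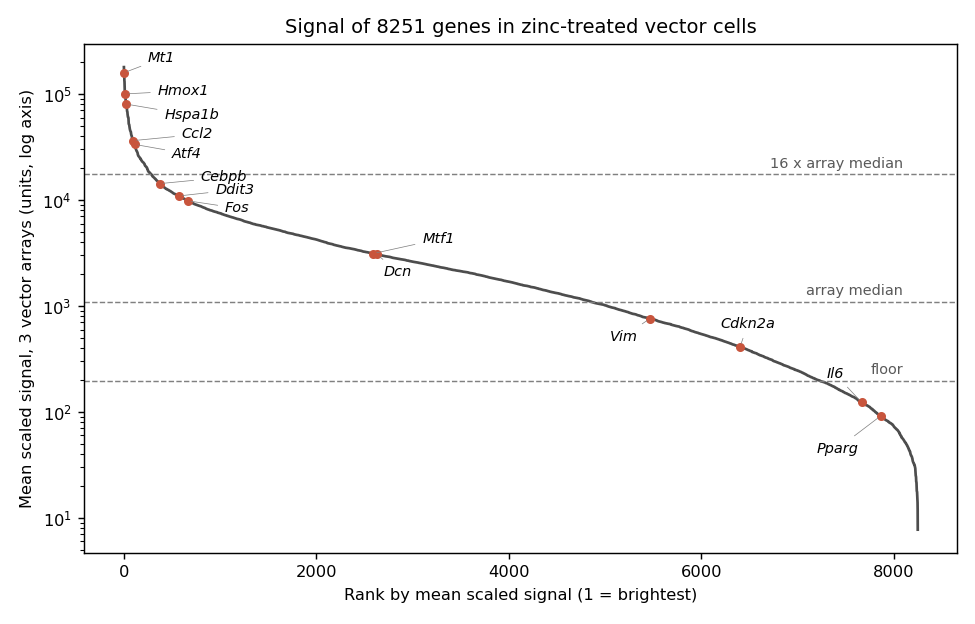
Mean scaled signal over the 3 vector arrays (log axis, units) of 8251 genes against their rank, with dashed lines at 16 times the array median (17569 units), at the array median (1098 units) and at the floor (198 units), and with 14 genes marked. The curve drops steeply over the brightest genes, which hold Mt1, Hmox1 and Hspa1b, runs evenly through the moderate genes, and falls off again among the genes near background, which hold Pparg.

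The metallothioneins Mt1 and Mt2, the main zinc-buffering proteins of most tissues, were among the 4 brightest of all genes. Mt1 read 136287, 166851 and 173928 units on replicates 1, 2 and 3, a mean of 159022 ± 20005 units (SD, n = 3). Mt2 read 136926, 169819 and 161836 units, a mean of 156194 ± 17157 units (SD, n = 3). Replicate 1 was lowest for both, and the 3 arrays lay within 1.28-fold of each other for Mt1 and 1.24-fold for Mt2. Mt3, known as the metallothionein of the brain, was moderate at 9731, 12634 and 13377 units, and Mt4, that of stratified epithelium, was near background at 103, 97.3 and 156 units. The family members share sequence, and how much of the Mt3 signal came from Mt1 or Mt2 RNA was not tested.

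Windows at the annotated starts of these genes are shown because metal response elements are the known route by which zinc reaches them. The windows run from 250 bases before to 50 bases after the start that RefSeq gives, on build GRCm38.p6, with matches to the element's core in capitals (TGCACNC or TGCGCNC, searched on both strands, so that a match on the other strand appears as its reverse complement). The Mt1 window lies at chr8:94178839-94179138 and that of Mt2 at chr8:94172368-94172667, both on the plus strand.
Mt1: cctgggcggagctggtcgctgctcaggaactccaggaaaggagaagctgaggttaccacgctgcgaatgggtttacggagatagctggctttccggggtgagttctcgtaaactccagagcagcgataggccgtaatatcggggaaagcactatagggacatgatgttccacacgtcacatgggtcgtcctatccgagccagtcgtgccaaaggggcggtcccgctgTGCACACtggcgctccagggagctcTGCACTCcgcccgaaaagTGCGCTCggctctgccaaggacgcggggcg
Mt2: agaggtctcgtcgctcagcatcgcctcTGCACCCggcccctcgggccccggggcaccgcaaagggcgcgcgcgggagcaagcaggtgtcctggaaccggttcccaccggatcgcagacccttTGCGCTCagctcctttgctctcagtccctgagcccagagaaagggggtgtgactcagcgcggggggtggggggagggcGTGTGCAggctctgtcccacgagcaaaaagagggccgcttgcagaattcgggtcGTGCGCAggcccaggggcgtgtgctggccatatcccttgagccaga
The Mt1 window held 3 matches, beginning 23 bases before the RefSeq start and at bases 3 and 21 after it. As many are held by 1.97% of the 32851 windows searched. Whether RNA in these cells begins at that start was not tested, and elements outside a window are not counted. The Mt2 window held 4 matches, 2 on each strand, and 0.517% of the windows hold as many. Mt3, which was moderate, and Mt4, which was near background, held 1 match each, and 25.7% of all windows hold at least 1. Slc30a1, which encodes the zinc exporter ZnT1, held 2 matches (7.11% of windows hold as many). A match is a run of letters and does not show binding.

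The other 9 zinc genes measured were all moderate by their brightest probe set. Mtf1, the zinc-sensing transcription factor, read 2721, 3484 and 3173 units. Slc30a1, a known target of that factor, read 2238, 2176 and 2171 units, with an SD of 0.02 on the log2 scale, the smallest of the list apart from Mt4, which was at the floor. This exporter thus sat near the middle of the signal range, unlike Mt1 and Mt2. Among the importers of the SLC39 family, which move zinc into the cytosol, Slc39a4 read 7776, 11610.4 and 7862 units and Slc39a7 read 6101, 9561 and 5919 units. Slc39a6 had 5199, 8883 and 5424 units and Slc39a1 2334, 4987 and 2448 units, and in each of these 4 importers replicate 2 was highest. The Slc39a4 value came from an _r_at probe set, a kind picked by relaxed rules, and the plain probe set of that gene was dim with a mean of 473 units. Among the SLC30 transporters, which carry zinc out of the cytosol, Slc30a3 had a mean of 6526 units, Slc30a4 of 5798 units and Slc30a5 of 1215 units. Slc30a5 was the least reproducible of the group, with 630.3, 1549 and 1466 units. In Slc39a1, Slc39a4, Slc30a3, Slc30a4 and Slc30a5 another probe set lay under the array median, with means from 98.5 units for Slc30a3 to 946 units for Slc30a5. Of the 13 measured genes of the list, 2 were thus brightest, 10 moderate and 1 near background, with a median at percentile 85.3 of all genes.

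Single genes of haem breakdown, thiol defence and iron storage were in the top band. Hmox1, the enzyme that degrades haem and a classic marker of metal and oxidant stress, read 99548, 102753 and 98504 units. Its mean was 100268 ± 2214 units (SD, n = 3) and its SD on the log2 scale 0.03, so replicate 2 did not stand out for it as it did for most bright genes. Fth1, the iron-storing ferritin heavy chain, read 87624, 113038 and 104057 units. The second probe set of Fth1, an _r_at one, read 32581, 16563 and 33607 units. Txn1, the thioredoxin that reduces protein disulphides, read 72818, 86978 and 78685 units. Prdx2, a peroxiredoxin that removes peroxide, read 24083, 26764 and 22625 units on a _g_at probe set, while its 2 plain probe sets had means of 241 and 22.7 units. Of the 25 oxidant defence genes measured, 4 were brightest, 19 moderate and 2 dim, with a median at percentile 77.8. Their median SD on the log2 scale was 0.192, against 0.198 for the brightest genes. Without replicate 2 these values were 0.112 and 0.0996. The dimmest was Gsta1, a glutathione transferase, whose 3 arrays were far apart at 703, 74.5 and 216 units. Of the 5 iron genes, Tfrc, which imports transferrin iron, was moderate at 7636, 6671 and 9754 units, as was Slc11a2, an iron transporter, at 4556, 6748 and 5326 units. Aco1, which encodes iron regulatory protein 1, was near background at 129, 137 and 152 units.

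Heat shock chaperones formed the list with the largest share in the top band. Of 18 measured genes, 12 were brightest, 4 moderate, 1 dim and 1 near background, against 3.41% brightest over all genes. Their median lay at percentile 97.8, and their median SD on the log2 scale was 0.110, against 0.241 for ribosomal proteins and 0.180 for actin and contraction genes. Without replicate 2 these 3 values were 0.036, 0.201 and 0.0722. Hsph1, an HSP110 that helps Hsp70 exchange nucleotide, read 75509.8, 81435 and 85659 units. Hspa1b, the stress-inducible Hsp70, read 74478, 86862 and 79853 units. Its neighbour Hspa1a encodes a nearly identical protein and read 25725, 29849 and 27308 units, so which copy each probe set reports is uncertain. Replicate 2 was highest for both Hsp70 copies, and all 3 arrays lay in the top band.

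The constitutive and mitochondrial chaperones were also in the top band. Hspa8, the constitutive Hsc70, read 62777, 79321 and 76016 units. Hsp90aa1, the inducible Hsp90, had a mean of 68159 ± 6886 units (SD, n = 3). The mitochondrial chaperonin Hspd1 (Hsp60) had a mean of 60683 units and its partner Hspe1 (Hsp10) of 50386 units. Hsp40 genes and cochaperones came further down the order. Dnajb1, the Hsp40 that is a standard target of heat shock factor 1, read 24283, 29199 and 24343 units. Chordc1, a zinc-binding cochaperone of Hsp90, read 22504, 22233 and 22883 units, and its SD on the log2 scale was 0.02. Bag3, an Hsp70 cochaperone of stressed cells, read 8416, 8809.8 and 8616 units in the moderate band. Cryab, the small heat shock protein αB-crystallin, was also moderate at 10817, 12656 and 11170.3 units. At the low end, Hspb1, the small heat shock protein Hsp25, read 203, 127 and 100.1 units, and Hsf2, a heat shock factor, read 37.0, 32.9 and 81.9 units. These 2 genes are each measured by 1 probe set, and their position in the range rests on it.

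In the endoplasmic reticulum, the chaperones were spread more widely. Hspa5, the Hsp70 of that compartment known as BiP, read 36840.3, 44336 and 39801 units. Serpinh1, which folds collagen, read 21423, 23753 and 24214 units, and Hsp90b1, the Hsp90 of the compartment, read 16159, 26346 and 20340 units. Those 3 were brightest, 8 of the 13 genes were moderate, and the median lay at percentile 74.2. Calr, the abundant lectin chaperone calreticulin, was dim at 145, 44.5 and 318 units. Hyou1, an Hsp110 of the compartment, was near background at 40.6, 33.9 and 34.9 units, and all 3 arrays were low.

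Immediate early genes, which growth factors and stress switch on within minutes, were well above the middle of the range 16 h after zinc. Of 24 measured, 3 were brightest, 19 moderate and 2 dim, with a median at percentile 89.6. Ier3, an early response gene linked to survival, read 27971, 30959 and 29463 units. Jund, an AP-1 subunit expressed in resting cells, read 22059.7, 36518 and 27493 units. Dusp1, a phosphatase that shuts off MAP kinases, read 19575, 21443 and 21211 units. Ier3 and Dusp1 each had an SD of 0.07 on the log2 scale, whereas Jund varied more (0.36) and was highest in replicate 2. The classic serum-induced factors were moderate. Fos, the AP-1 subunit, read 8163, 13394 and 7957 units, with replicate 2 above the other two. Egr1, a zinc finger factor, read 9615, 12219 and 9621 units, again with replicate 2 above the others. Jun differed from both, with 3764, 3772 and 3638 units and an SD of 0.03. Klf2 was the dimmest of the list at 259, 150.4 and 116 units.

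Growth arrest genes of the Gadd45 family lay at or just under the edge of the top band. Gadd45a read 14804, 19838 and 18151 units, Gadd45g 14101, 21986 and 12879 units and Gadd45b 17127, 16575 and 14366 units, and replicate 2 was highest for the first 2 of them. Mdm2, the ligase that degrades p53, had a mean of 14720.4 units, and Cdkn1a, the p53 target p21, of 8539 units. The 16 genes of the list split into 1 brightest (6.25%), 8 moderate (50%) and 7 dim (43.75%), with a median at percentile 53.2. Over all genes those bands held 3.41%, 55.4% and 33.0%. Cdkn2a, which encodes p16 and p19ARF and whose locus is reported as deleted in NIH 3T3 cells, read 446, 491 and 296 units. It was above the floor of 198 units on all 3 arrays and under the highest control reading of 1089.8 units. A reading in the dim band was therefore seen for a gene that the line is reported to lack, and whether these cells lack it was not tested. Cdkn1c, the inhibitor p57, was lower still at 250.5, 319 and 173 units.

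The C/EBP genes of the mouse themselves, the background on which the study's human cDNAs were set, were mostly moderate. C/EBPs are leucine zipper factors of fat, liver and myeloid differentiation. Cebpb read 9579, 17924 and 15327 units, with replicate 1 the lowest and an SD of 0.47 on the log2 scale. Ddit3, the stress-induced family member CHOP, read 9095, 11809 and 11873 units. Cebpd read 5529, 8181 and 6473 units, and Cebpg, which lacks a strong activation domain, read 3599, 4064 and 3871 units. Cebpa was dim at 541, 466 and 635 units, below the highest control reading on all 3 arrays. The 5 measured members had a median at percentile 86.0. Cebpb was the brightest and the least reproducible of them.

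**Figure D2:**
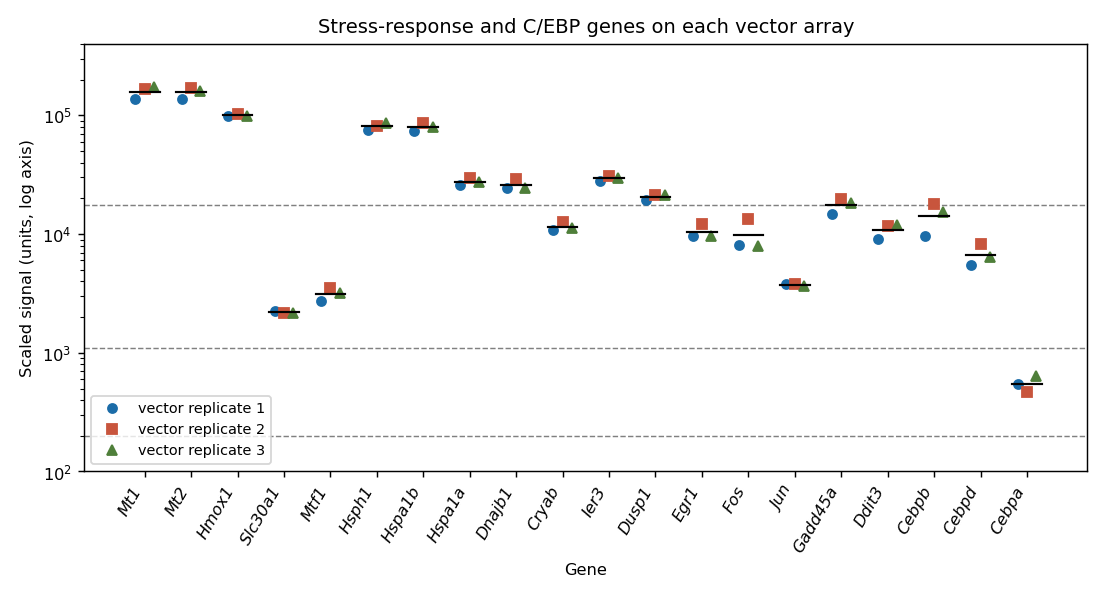
Scaled signal (log axis, units) of 20 stress-response and C/EBP genes on vector replicates 1 (circles), 2 (squares) and 3 (triangles), with a black bar at the mean and dashed lines at 17569, 1098 and 198 units. Hmox1, Slc30a1, Ier3, Dusp1 and Jun show nearly overlapping arrays, while Cebpb and Fos are spread, and Cebpa is the only gene shown under the array median.

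Genes of translation and of energy metabolism were also found in the top band. Cytosolic ribosomal proteins had the highest median of all lists, at percentile 98.2, and 19 of 36 were brightest. Rplp0, the stalk protein, read 135519, 169657 and 171653 units, and Rps28 of the small subunit read 115651, 141451 and 137437 units. Replicate 1 was lowest for both. Yet 11 of the 36 were dim, although most of these proteins are part of every ribosome. Rps15 read 46.2, 232 and 27.0 units and Rps14 read 367, 115 and 129.5 units. Of the 11, 8 are measured by 1 probe set, and their means ran from 102 to 759 units. The band of a gene thus cannot be taken as the amount of its RNA. Eef1a1, which brings aminoacyl-tRNA to the ribosome, read 119038, 142502 and 136893 units, and Eef2, the translocation factor, had a mean of 48980.3 units. Eif3c, an initiation factor subunit, had a mean of 34641 units. Of 49 initiation and elongation factors, 7 were brightest, 31 moderate, 7 dim and 4 near background (median percentile 77.5), and Eif4g3 was dimmest at 106, 74.5 and 69.1 units.

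Glycolysis was bright. Ldha, which makes lactate, read 67217, 72614 and 65431 units, and Pkm, pyruvate kinase, read 60291, 67203 and 61851 units. Both had an SD of 0.08 on the log2 scale. Tpi1, triose phosphate isomerase, had a mean of 59986 units, and 7 of 16 glycolytic genes were brightest (median percentile 90.1). The brain-type aldolase Aldoc was dimmest, with 897, 846 and 188 units. Of 73 oxidative phosphorylation genes, 12 were brightest and 48 moderate (median percentile 87.4). Uqcrq of complex III read 42080.2, 51261 and 41916 units, Cox6c of complex IV had a mean of 44163 units and the ATP synthase gene Atp5md one of 36396 units. Cox6c was read by an _f_at probe set, and its 2 other probe sets had means of 106 and 208 units. Cox14, a complex IV assembly factor, was near background at 24.5, 48.3 and 42.6 units.

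Proteasome subunits, which degrade ubiquitin-tagged proteins, were brightest in 4 and moderate in 32 of 40 cases (median percentile 91.4). Psmb4 read 26430.5, 31512 and 28962 units on an _f_at probe set. Its plain probe set had a mean of 856 units and an _r_at one of 25.1 units. Psma2 had a mean of 24495 units and Psmc6 of 23259 units. Psmb8, an immunoproteasome subunit that interferon is known to induce, was the dimmest at 327, 146 and 171 units. Among cathepsins and other lysosomal genes, 6 of 23 were brightest, led by Lamp1, the membrane glycoprotein of the lysosome, at 59009.8, 71277 and 64340 units. The proteases Ctsl and Ctsb followed, with means of 28833 ± 4801 units (SD, n = 3) and 25104 ± 1142 units (SD, n = 3). Ctsw, a cathepsin of cytotoxic lymphocytes, was near background at 138, 96.2 and 75.6 units. In cholesterol synthesis, Fdps, farnesyl diphosphate synthase, alone of 17 genes was brightest at 17916, 23129 and 19428 units, and 14 were moderate. Sqle and Idi1, enzymes of the same path, had means of 7924 units and 7905 units, and Insig1, which restrains the pathway, was near background at 111, 34.1 and 35.9 units.

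Cell cycle genes were almost all moderate or brighter, as 30 of 32 were. The brightest band held 9.375% of them and the moderate band 84.4%, against 3.41% and 55.4% over all genes. Cdk4, the kinase of cyclin D, read 22382, 27282 and 19042 units. Pcna, the replication clamp, read 17224, 22852 and 19237 units, and Cdc20, an activator of the anaphase-promoting complex, read 18613, 18499 and 15938 units, just inside the top band. Mcm6, a subunit of the replicative helicase, was the dimmest at 230.1, 51.9 and 159 units. The list's median lay at percentile 79.8. The circadian clock genes lay near the middle of the range (percentile 53.7), led by Csnk1d, a clock kinase, at 11409, 10218 and 8876 units, and by the nuclear receptor Nr1d1 at 7473, 8939 and 6758 units, with the repressor Bhlhe40 next at a mean of 4723 units. Per2, a period gene, was near background with a mean of 90.7 units.

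Among cytoskeleton genes, those of actin and contraction lay high in the range. Of 30 actin and contraction genes, 9 were brightest and 15 moderate (median percentile 93.1). Actg1, cytoplasmic γ-actin, read 67603, 87777 and 77854 units. Tmsb10, which sequesters actin monomers, had a mean of 68881 ± 12197 units (SD, n = 3), and Cfl1, cofilin, of 44740 ± 5386 units (SD, n = 3). Flna, the actin cross-linker filamin A, read 31.5, 18.9 and 28.7 units and was near background on every array. Actb itself was a special case. The brighter of its named probe sets read 1859.8, 28872 and 9281 units, a 15.5-fold range, while the 3 control probe sets for mouse β-actin read from 80982 to 125950 units. Of 13 tubulin genes, 3 were brightest, 6 moderate and 4 dim (median percentile 74.1). Tuba1c read 73524, 102165 and 79517 units and Tubb5 41908, 55543 and 47659.8 units. Tuba1a had a mean of 43980 units. These 3 genes were read by probe sets with a suffix that marks shared or irregular probes. Without such probe sets the tubulin median was at percentile 46.3. The pseudogene Tubb2a-ps2 was dimmest at 109.5, 154 and 331 units. Tubulin genes are close in sequence, so these signals may not be those of 1 gene each.

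Fibroblast and mesenchymal markers were set against the label of the cells. Of 22 measured, 6 were brightest (27.3%), 10 moderate (45.5%), 6 dim (27.3%) and 0 near background, with a median at percentile 73.9. Over all genes these bands held 3.41%, 55.4%, 33.0% and 8.19%. The summed signal of the list was 263615, 341253 and 304092 units on replicates 1, 2 and 3. Lgals1, a galectin of connective tissue, read 85619, 120301 and 109674 units. S100a4, called fibroblast-specific protein, read 39978, 54619 and 46352 units. The collagen I chains Col1a2 and Col1a1 read 18986, 30194 and 21812 units and 18240.3, 26333 and 20363 units. In all of these replicate 1 was lowest and replicate 2 highest. The collagen chaperone Serpinh1 and the protease inhibitor Timp1, with means of 23129.8 units and 18308 units, completed the 6.

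Several classic markers of the lineage were dim. Vim, the mesenchymal intermediate filament vimentin, read 949, 682 and 654 units on its only probe set, under the array median on all 3 arrays. Lum, the proteoglycan lumican, read 305, 331 and 187 units, and Fap, fibroblast activation protein, was the dimmest of the list at 135, 248 and 341 units. Of this list, collagen I, its chaperone, Timp1, Lgals1 and S100a4 were thus in the top band, while other markers of the label were dim.

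Marker lists of other cell types sat lower. Of their 72 measured genes none was brightest, 18 were moderate, 44 dim and 10 near background. Over all genes the shares of these bands were 3.41%, 55.4%, 33.0% and 8.19%. Hepatocyte markers (9 genes) had 7 dim and 2 near background, with no mean at or above the array median, and a median at percentile 21.1. The near-background ones were the fibrinogen chain Fgb (95.2 units) and the liver transcription factor Hnf4a (158 units). The 3 brightest were Cyp2e1, albumin (Alb) and α-fetoprotein (Afp), with means of 1077 units, 773 units and 634 units. Epithelial markers (12 genes) had 2 moderate members, Cdh1, the adhesion protein E-cadherin, at 2452, 3425 and 3092 units and Cldn3, a tight junction claudin, at 1485, 1332 and 1153 units. Cldn4, another claudin, was dim with a mean of 540.03 units. Epcam was near background with a mean of 70.6 units. Neural markers (13 genes) had 3 moderate members, led by the neuronal tubulin Tubb3 at 6096, 8346 and 5975 units. The myelin gene Mbp and the synaptic vesicle gene Syp had means of 1394 units and 1348 units. The second Tubb3 probe set had a mean of 502 units, and Snap25, a synaptic fusion protein, and Nefm, a neurofilament, were near background with means of 61.3 units and 116 units.

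Blood cell markers (15 genes) had 4 moderate members and none near background. Csf1r, the receptor for macrophage colony-stimulating factor, was brightest of them at 5291, 4964 and 5639 units, while its other probe set had a mean of 534 units. The B cell gene Cd79a and the T cell gene Cd4 had means of 1551 units and 1507 units. Ptprc, the pan-leukocyte antigen CD45, was dim, as was the T cell gene Cd3e, the lowest of the list with a mean of 227 units. Muscle markers (14 genes) had 4 moderate and 4 near background members. Actc1, cardiac α-actin, led them at 2789, 2796 and 2648 units, and its other probe set had a mean of 24.4 units. The near-background ones were the skeletal actin Acta1, the myosins Myh2 and Myl2 and the troponin Tnni3, with means from 58.3 units to 139 units. Endothelial markers (9 genes) had 5 moderate members (55.6%), near the 55.4% over all genes, and a median at percentile 42.2. Vwf, von Willebrand factor, led them at 1969, 2701 and 2376 units. Eng and the VEGF receptor Kdr had means of 1976 units and 1643 units, and Tie1 was near background at 101, 116 and 169.8 units. Tnnc2, a troponin, and Myog, a muscle transcription factor, had means of 1981 units and 1529.8 units. For Tubb3, Csf1r, Actc1 and Tnnc2 the higher reading came from probe sets whose suffix marks shared or irregular probes, and the other probe set of each was under the array median, at 798 units for Tnnc2. Vwf and Cldn3 had a second probe set under the median too, at 185 and 126 units.

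**Figure D3:**
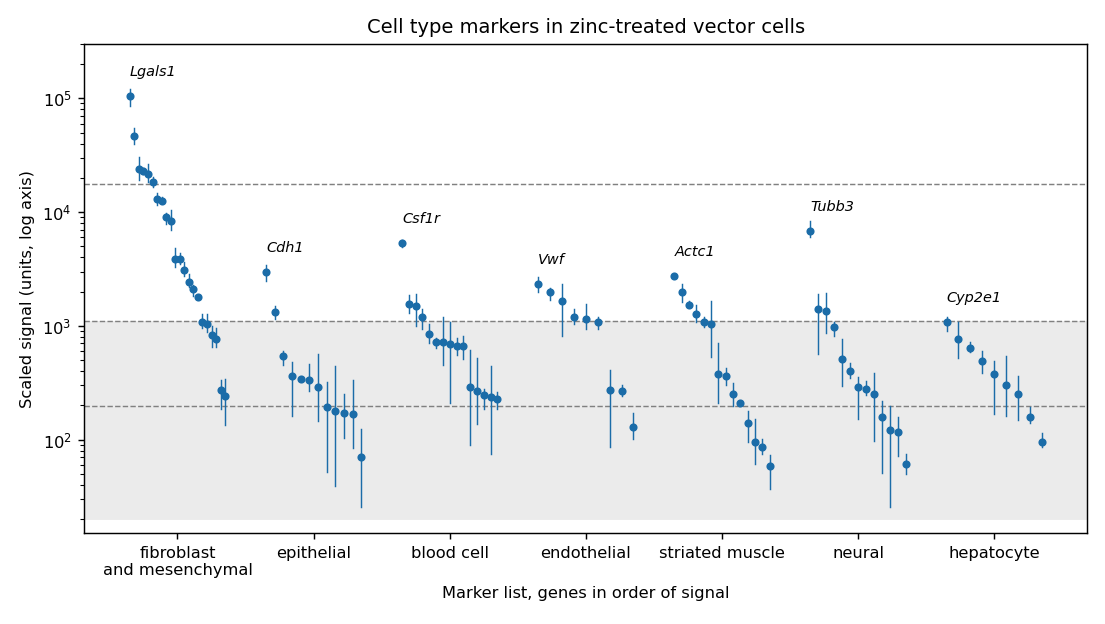
Scaled signal (log axis, units) of the measured genes of 7 cell type marker lists, in order of signal within a list, with points at the mean and lines from the lowest to the highest of the 3 arrays. Grey shading marks signals up to the highest control reading (1089.8 units) and dashed lines stand at 17569, 1098 and 198 units; fibroblast markers alone reach the upper line, and most other markers lie in the shaded range.

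Matrix genes ranged over the whole scale. The proteoglycan Bgn, biglycan, read 58022, 71408 and 58224 units and was the single brightest of 29 matrix glycoproteins and proteoglycans, of which 18 were moderate, 8 dim and 2 near background. The glycoproteins Fbln2 and Fn1, fibulin 2 and fibronectin, had means of 16003 units and 12914 units, and Mfap2 was near background at 92.3, 153 and 37.3 units. Of 31 collagen chains, 3 were brightest (9.68%) and 13 moderate (41.9%), against 3.41% and 55.4% over all genes. Col5a2, of the collagen that nucleates collagen I fibrils, read 19523, 27913 and 20823 units, and Col22a1 was near background at 51.8, 68.2 and 44.9 units. Among matrix proteases and their inhibitors, the brightest after Ctsl and Ctsb was Ctsd, cathepsin D, at 17848, 22176 and 22116 units, and the neutrophil collagenase Mmp8 was near background at 59.4, 55.5 and 110.4 units. Of 43 integrins and adhesion genes, 3 were brightest and 23 dim. Cd63, a tetraspanin, read 44714, 55788 and 46088 units, while the integrin chains Itgb1 and Itgav had means of 34753 units and 18059 units. Cdh10, a neuronal cadherin, was near background at 31.0, 97.4 and 46.8 units. The annexin, S100 and galectin list was split, with 8 of 28 brightest and 11 dim or near background, from Lgals1 and S100a6 (81599, 102275 and 87483 units) down to S100a16 (15.5, 13.9 and 15.1 units).

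Secreted signals were mostly low. Of 47 chemokines and interleukins, 2 were brightest, 10 moderate, 28 dim and 7 near background (median percentile 24.8). The exceptions were CC chemokines, which attract monocytes and related cells. Ccl2 read 31104, 43329 and 34594 units and Ccl9 read 16553, 26588 and 15278 units, both highest in replicate 2. Ccl7, another member of that family, was moderate at 7313, 8043 and 8679 units, and Il2, the T cell growth factor, was near background at 17.0, 20.3 and 28.6 units. None of 63 growth factors was brightest, against 3.41% over all genes, and 13 (20.6%) were near background, against 8.19% over all genes. Hbegf, an EGF receptor ligand, read 8391, 9745 and 7613 units, Pdgfa, a PDGF chain, read 7658, 9067 and 8359 units, and Igf2 had a mean of 5601 units on a _g_at probe set. The plain probe set of Igf2 was near background, with a mean of 52.5 units. Vegfc was the dimmest, with a mean of 38.1 units.

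Of 26 growth factor receptors, 14 were moderate (53.8%) and 12 dim, a share of moderate genes near the 55.4% over all genes. Fgfr1, a receptor for fibroblast growth factors, read 12645, 14044 and 11756 units. Ddr2, the collagen receptor, and Pdgfra, a PDGF receptor, had means of 8955 ± 1009.9 units (SD, n = 3) and 8380.2 ± 1871 units (SD, n = 3). The other probe sets of Pdgfra had means of 228 and 708 units. Pdgfra was among the genes for which replicate 1 was highest, at 10504 units. Kit, the stem cell factor receptor, was dimmest, with 19.5, 13.0 and 198 units. Of 21 interleukin receptors 5 were moderate, led by Il27ra at 2773, 2911 and 2884 units and by Il6ra and Il10rb with means of 2513 units and 2127 units, and with Il5ra dimmest at 41.0, 39.7 and 78.8 units.

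Antigen presentation and interferon genes lay mostly low. Of 16 class I and antigen presentation genes, 1 was brightest (6.25%), 5 moderate (31.25%), 9 dim (56.25%) and 1 near background (6.25%). Over all genes these bands held 3.41%, 55.4%, 33.0% and 8.19%. The list median was at percentile 31.3, and a few class I genes stood above it. B2m, the light chain of class I molecules, read 37979.6, 51075 and 44313 units, and the heavy chains H2-D1 and H2-K1 had means of 13910.2 ± 2893 units (SD, n = 3) and 13604 ± 898 units (SD, n = 3). H2-D1 and H2-K1 were read by _f_at probe sets, and each had another probe set under the array median, at means of 905 and 485 units. Class I heavy chains are close in sequence, so the split between them is uncertain. H2-Aa, a class II chain of antigen-presenting cells, was near background at 81.3, 111 and 70.2 units. Of 14 interferon-induced genes none was brightest, a band that held 3.41% of all genes. Of the 14, 7 were dim (50%) and 1 near background (7.14%), against 33.0% and 8.19% over all genes. The list median lay at percentile 37.0. The genes ran from Irf1 at 4223, 4283 and 4973 units to Ifit1 at 35.8, 38.8 and 53.4 units. Ifi204 and Gbp2 were the next after Irf1, with means of 4265 units and 1577 units. The Ifi204 value came from an _f_at probe set, and its 2 other probe sets had means of 582 and 811 units.

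Genes of differentiated or patterned tissues were at the low end. Of 16 adipocyte differentiation genes, 5 were moderate, 9 dim and 2 near background. The moderate ones were led by the lipogenic enzymes Scd1, at 7613, 10061 and 8839.6 units, and Fasn, at 7702, 9034 and 7596 units, and by their regulator Srebf1, with a mean of 4526 units. Pparg, the master regulator of fat cells, was near background at 176, 78.2 and 21.4 units. Of 31 Hox genes, which set position along the body, 8 were moderate and 23 dim or near background. Hoxa4 read 7871, 5367 and 7388 units on an _r_at probe set, while its 3 other probe sets had means of 13.9 to 344 units. Hoxd8 and Hoxa5 had means of 4829 units and 3118 units, and Hoxa10 was near background at 22.7, 29.6 and 36.5 units. Potassium channels (41 genes, median percentile 26.6), cytochromes P450 (38 genes, 22.9) and keratins (30 genes, 35.5) had no member in the top band. That band held 3.41% of all genes. The 3 brightest potassium channels were Kcnn4, Kcnn1 and Kcnh2, with means of 3646 units, 2928 units and 2505 units. Among the P450 genes Cyp21a1, Cyp2c39 and Cyp2f2 led with means of 3742 units, 1710.1 units and 1271 units. Among the keratins Krt35, Krt32 and Krt86 led with means of 4255 units, 3704 units and 2967 units, but Krt35 was read by an _r_at probe set, its other probe set had a mean of 477 units, and the keratin median fell to percentile 21.1 without suffixed probe sets. The dimmest of the 3 lists, Kcnk3, Cyp1b1 and Krt15, were near background. The 83 zinc finger genes named Zfp, whose products hold zinc as a structural ion, lay near the middle (percentile 44.9). Of them 46 were moderate (55.4%), near the 55.4% over all genes, and 33 dim (39.8%), against 33.0% over all genes. Zfp598 led them at 10211, 14407 and 11413 units. Zfp91 and Zfp644 had means of 7770.1 units and 7749 units, and Zfp612 was near background with a mean of 21.2 units.

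**Figure D4:**
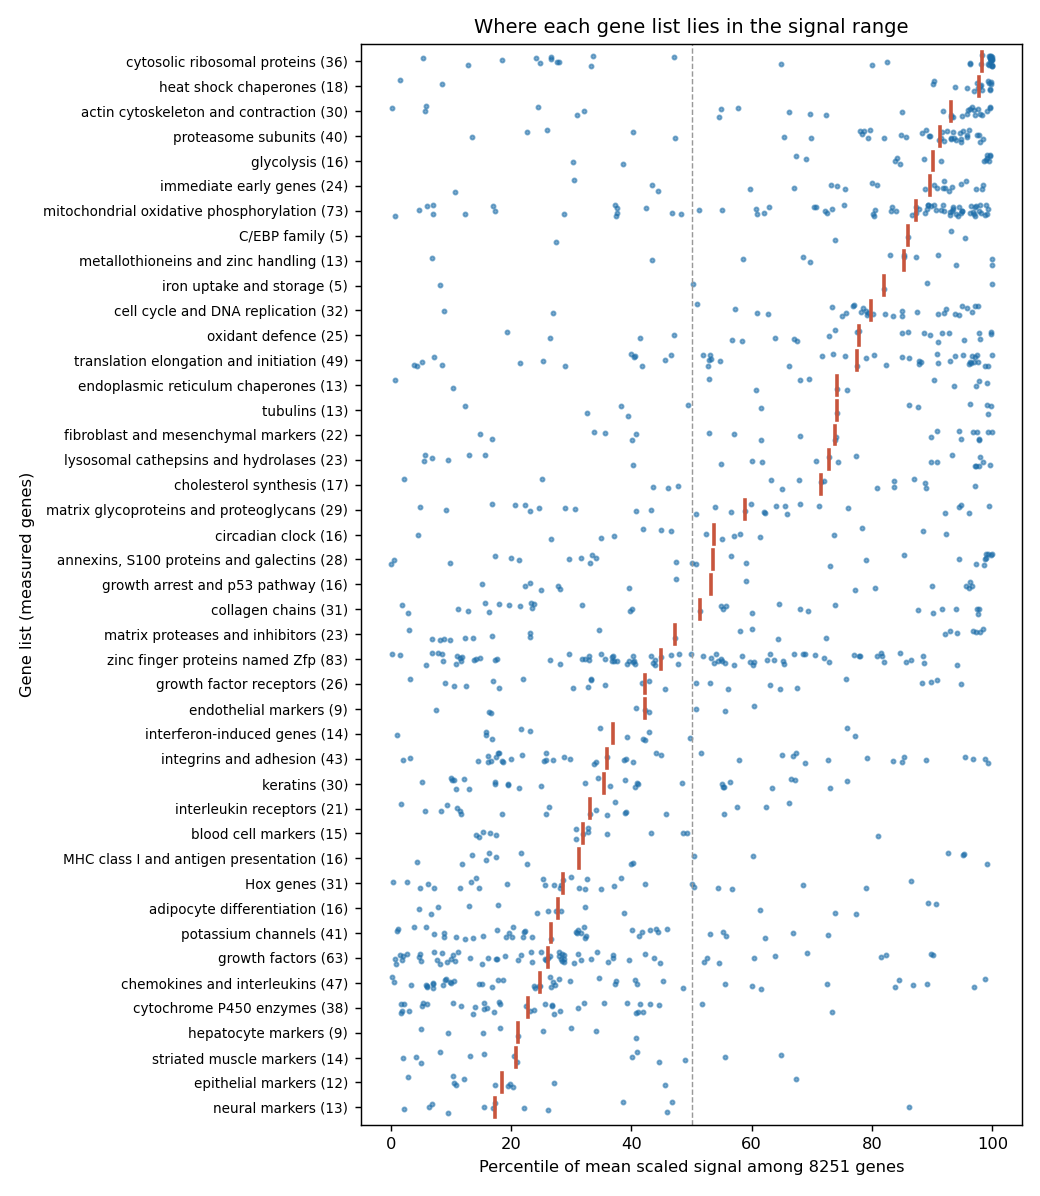
Percentile of the mean scaled signal among 8251 genes (horizontal axis) for the measured genes of 43 gene lists, 1 point per gene, with a red bar at each list's median and a dashed line at percentile 50. Ribosomal proteins and heat shock chaperones have the highest medians (98.2 and 97.8) and neural markers the lowest (17.4), and nearly every list has members far from its median.

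List medians were also computed on each array alone. In 13 of 43 lists the median lay at percentile 75 or above, and in 16 at 40 or below. These single-array medians had an SD of 0.208 percentile points for heat shock chaperones and 0.213 for ribosomal proteins, against 6.43 for antigen presentation and 4.28 for blood cell markers. The lists together held 1100 genes and 116 of the 281 brightest. A median close to percentile 100 has little room to move, and some lower lists also moved little, such as the Zfp genes (SD 0.674) and cytochromes P450 (0.974).

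Single genes of the moderate and brightest bands were more reproducible than dim ones. Values under the floor were raised to it before log2 was taken, so genes near background have no spread by construction. The median SD on the log2 scale was 0.198 for brightest, 0.209 for moderate and 0.415 for dim genes, and without replicate 2 it was 0.0996, 0.124 and 0.291. The highest of the 3 arrays exceeded the lowest more than 2-fold in 4 of the 281 brightest genes (1.42%), in 200 moderate genes (4.37%) and in 992 dim genes (36.5%). The genes were also ordered by mean and cut into 10 equal groups. The median SD was largest, at 0.586, from 347 to 636 units, where 56.6% of genes were over 2-fold. An array at the floor was seen in 22.7% of the genes of that group and in 80.8% of the next lower one. Raising values to the floor narrows the spread, so the groups under 347 units may vary more than their SD shows. The brightest of these groups had a median SD of 0.193. Without replicate 2, the median SD of moderate and brightest genes fell from 0.209 to 0.123, and the genes over 2-fold from 204 to 52. Both measures tend to be lower over 2 arrays than over 3.

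Across all 8251 genes, the Pearson correlation of log2 signals was 0.959 between replicates 1 and 2, 0.968 between 1 and 3 and 0.962 between 2 and 3. These are correlations over genes, which are not independent, and the wide range of brightness sets much of their size. Of the 100 brightest genes on each array, 85 were shared by all 3 and 114 appeared on any. Of the 281 brightest genes, 233 reached 16 times the array median on all 3 arrays. At the other end, 1018 genes were at the floor on some arrays but not on all.

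The 5 most reproducible genes above the array median were all in the moderate band. Acin1, a splicing-associated protein, read 3722, 3738 and 3709.9 units. Tia1, an RNA-binding protein of stress granules, read 2624, 2636 and 2618 units, and Prpf31, a spliceosome protein, read 3199.7, 3210.4 and 3235 units. Bub3, of the spindle checkpoint, read 13893, 13901 and 13773 units, while its other probe set had a mean of 345 units. Fkbp1b, which binds calcium channels, read 1942, 1953 and 1954 units. Their SD on the log2 scale was at most 0.0081, which is the extreme of 4475 genes above the median on all arrays and not a measure of precision.

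Among genes above the array median on all 3 arrays, the 10 least reproducible were mostly read by probe sets with the suffix _r_at, whose probes were picked by relaxed rules. Med22 read 244120, 6327 and 161163 units, a 38.6-fold range, while its other probe set read 2801, 3120 and 1837 units. The place of Med22 among the 25 brightest therefore rested on 1 irregular probe set. Of the 25 brightest genes, 8 were read by suffixed probe sets, and 7, to which Med22 does not belong, had another probe set under the array median. Snrpb is one, with 106397, 58586 and 92139 units on an _r_at probe set and a mean of 27.3 units on another of that kind. Rps24 is another, with a mean of 111859 units on an _r_at probe set and 448 units on a plain one, and Gnas has a mean of 82468 units on an _s_at probe set and 822 and 101 units on 2 plain ones. The remaining 4 are Rps28, Rpl7, Rpl19 and Rps4x, while the ribosomal genes Rps3a1, Rps18 and Rpl8 of the top 25 are measured by 1 probe set each. Rbfox2, a splicing factor, showed the same order of arrays with 44449, 3294 and 18019 units, against a mean of 1117 units on its other probe set. Txnrd3, a thioredoxin reductase, read 28676, 5853 and 22067 units, Tyms-ps read 5380.4, 1267 and 3029 units, and Pcp2, a Purkinje cell protein, read 2971, 1142 and 4119.5 units. Mrps18a, a mitochondrial ribosomal protein, read 15987, 5042 and 10072 units. The other 4 were Actb, the orphan receptor Gpr12 (6825, 1365 and 3116 units), the sialyltransferase St6galnac2 (5251, 1524 and 5508 units) and Sprr2j-ps (9776, 4159.6 and 16836 units). Replicate 2 was lowest in 9 of these 10 genes, in all but Actb, whereas it was highest in most bright genes. Among genes above the median on all arrays, 27 of 149 read by an _r_at probe set (18.1%) had arrays over 2-fold apart, against 55 of 3881 (1.42%) read by a plain _at probe set.

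**Figure D5:**
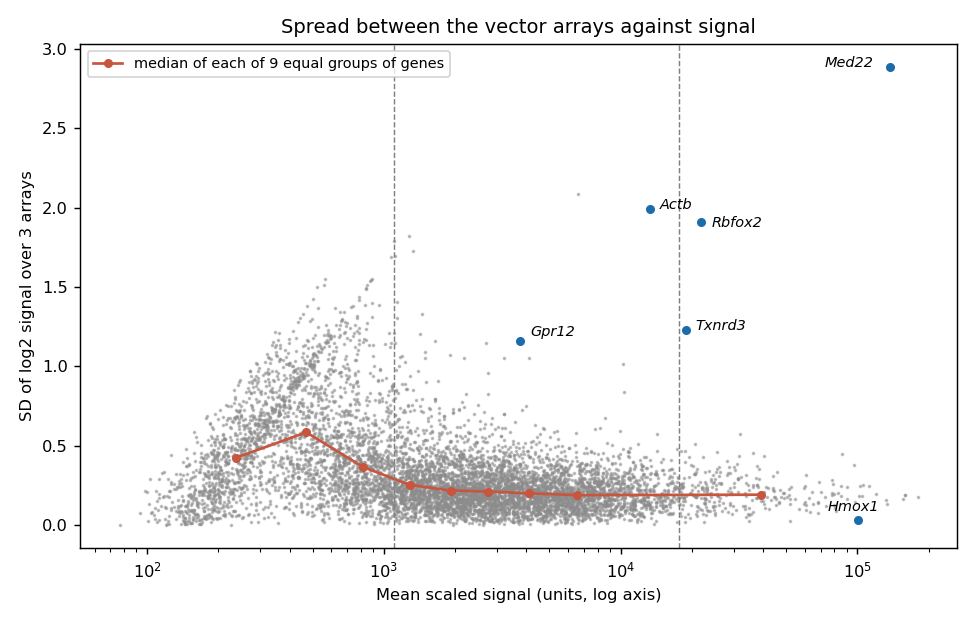
SD of log2 signal over the 3 vector arrays against mean scaled signal (units, log axis) for each gene not near background (grey points), with the medians of 9 equal groups of genes ordered by mean, the lowest of 10 left out (red) and dashed lines at 1098 and 17569 units. The median spread peaks at 0.586 among dim genes and levels off near 0.2 above the array median, with Med22, Actb and Rbfox2 far above it and Hmox1 far below. To the left of the peak, values raised to the floor narrow the spread.

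How bright a gene appeared depended on its probe set more than on the array. Among 2073 genes with several probe sets, the brightest and the dimmest probe set differed by a median of 1.74 on the log2 scale (3.34-fold), and 276 genes (13.3%) differed more than 16-fold. Of the 94 brightest genes with several probe sets, 37 had one under the array median and 17 one at or under the floor. Col1a1 is an example within 1 gene, with means of 21646 and 4698 units on its 2 probe sets. Timp1 is a stronger one, with means of 18308 and 54.6 units. Of 60 named genes with several probe sets and a signal at or above the array median, 42 had another probe set under it, and 24 of the 42 were read by a suffixed one. Those not pointed out above are Csnk1d, Ctsb, Fdps, Krt32, Mbp, Pcp2, Scd1, Slc11a2, Srp14, Txnrd3, Tyms-ps and Zfp91.

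The limit of the top band fell among genes of nearly equal signal. Just inside it were Srp14 (17751 units), Cdc20 (17683 units), Gnb2 (17620 units), Gadd45a (17598 units) and G3bp1 (17572 units). Just outside were Pttg1ip (17554 units), Cript (17548 units), Ppp1r15a (17522 units), Ifrd1 (17462 units) and the copper chaperone Atox1 (17446 units). These 10 genes differ in mean by less than the SD of any of them over the 3 arrays.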

How the data were processed

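RNA of NIH 3T3 cells was hybridised to 15 arrays, of which the 3 vector arrays were used. The value that the authors deposited for a probe set is an intensity on a linear scale from Affymetrix Microarray Suite 5.0, per the labels' protocols. On all 3 arrays the 2% trimmed mean was within 2501.24 to 2501.39 units, so the deposited intensity values had been scaled. No genome build or probe alignment is given in the sources used here.

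The 66 control probe sets were set aside, and each array was brought to a common median over the other 12422, the average of the 3 array medians. Symbols came from the platform annotation, updated by Entrez ID through RefSeq GRCm38.p6 (10817 of 10833 matched). The list percentile is the share of the 8251 genes with a lower mean. Values under the floor were raised to it before log2. Python 3.11.15, numpy 2.4.6, pandas 2.3.3 and scipy 1.17.1 were used, and the computation was tested on simulated data.

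No test was made, because 1 group was described. With 3 arrays, their number limits the precision. The genes named are the 25 brightest, the 3 brightest and the dimmest of each list, all C/EBP and zinc genes, marker genes in the top or bottom band, Cdkn2a, the 10 least and 5 most reproducible genes above the array median, and 5 genes on each side of the top band's limit. Genes named beside these 218 were chosen after their values were seen. The arrays, the 43 lists and the rule were chosen with earlier results of these data known. Alternatives were other scalings, floors, averages and probe set rules and leaving out each array.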

Additional observations from a re-analysis of the deposited data

How the results depend on the processing

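The counts of brightest and moderate genes, the number of lists at the top and bottom of the scale and the overlap with the 25 brightest genes stayed within 1.5 times their values under every alternative run. The floors, all under the array median, could not change these values, but the low end depended on them. Near-background genes numbered 676, but a floor at the 10th percentile left 211 of them and one at the 40th gave 2095, where dim genes fell from 2720 to 1301. With the floor at the highest control reading, an alternative chosen after seeing the data, 2971 genes were near background and 425 dim.

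Reproducibility depended on replicate 2 and on the scaling. Leaving out 1 array changed the moderate and brightest genes over 2-fold from 204 to between 52 (without replicate 2) and 121 (without replicate 3), in part because 2 arrays span less than 3. Their median SD ran from 0.123 (without replicate 2) to 0.209 (without replicate 3), and an SD over 2 arrays also tends to be lower. With all 3 arrays the median SD was 0.209, but 0.173 with the values as deposited and 0.171 after quantile normalization.

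Which probe set reads a gene moved levels most. Of 218 named genes, 49 moved by more than their SD over arrays with the median over probe sets. With suffixed probe sets left out, 23 had no probe set left, and 18 of the other 195 moved. None moved under the other scalings and averages. The floor does not enter a mean, and leaving out 1 of 3 arrays shifts the mean of a probe set by less than its SD. Those alternatives could therefore not show a move of a gene. Of 43 list medians, 24 moved with the median over probe sets and 19 without suffixed probe sets. Without replicates 1, 2 and 3, 4, 7 and 7 moved. Iron genes went from percentile 82.0 to 52.1 and tubulins from 74.1 to 46.3 without suffixed probe sets, and zinc genes from 85.3 to 74.1 with the median over probe sets.

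No paired analysis was possible because 1 group was described and no groups were compared. A signal within the range of the control readings cannot be told by its level from signal without target. The top of that range, 1089.8 units, was 1 reading of 1 control.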

Other observations

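Of the 281 brightest genes, 165 were in no list, and a few of them are given here, picked after their values were seen. Psat1, which makes serine, read 50882, 52912 and 51507 units, and its SD on the log2 scale was 0.03. Asns, asparagine synthetase, read 37960.3, 37165 and 34001 units, and Atf4, the transcription factor of amino acid and endoplasmic reticulum stress, read 36049, 32963 and 31390.4 units. All 3 were in the top band on every array, and in none of them did replicate 2 stand well above the others. Slc3a2, the heavy chain of amino acid transporters, had a mean of 30425 ± 7725 units (SD, n = 3), and Mthfd2, a mitochondrial folate enzyme, of 18327 ± 3011 units (SD, n = 3). Of 16 cytosolic aminoacyl-tRNA ligase genes, 2 were brightest, 13 moderate and 1 dim, with a median at percentile 85.4. Phgdh, the first enzyme of serine synthesis, was dim at 679, 643 and 597 units.

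Other bright genes outside the lists included Sqstm1, the autophagy receptor p62, at 35182, 34194 and 35632 units, and Hmga2, a chromatin protein of embryonic and transformed cells, at 34882, 34327 and 32502 units. Both had near-equal arrays. Slpi, a secreted protease inhibitor, read 33299, 35246 and 36433 units, and Dlk1, a surface protein that restrains fat cell differentiation, read 20489, 27224 and 20659.5 units. The nucleolar proteins Npm1 and Ncl had means of 60332 ± 6118 units (SD, n = 3) and 52393 ± 8611 units (SD, n = 3). Of 9 genes for subunits of the chaperonin CCT, which folds actin and tubulin, 3 were brightest, 5 moderate and 1 dim.

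Of 391 probe sets in the top band by mean, 90 name no gene or several and are described by none of the values above.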
